A study of Mus musculus with 12 samples.

Results

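The heat shock proteins and their J-domain cochaperones were followed in mouse muscle that had been transduced with Crtc2 or GFP, under alternate day fasting or with free access to food. The members were the genes whose symbols begin with Hspa, Hspb, Hspd, Hspe or Hsph and a digit, with Hsp90, or with Dnaja, Dnajb or Dnajc and a digit. In a table of 22607 genes 73 symbols had this form. Of these, 8 pseudogenes (-ps) and 1 gene with fewer than 10 counts over all 12 libraries (Hspb9) were left out, which gave 64 members. They were placed by known location: 39 in the cytosol, the nucleus or on vesicles, 14 in the endoplasmic reticulum and 10 in mitochondria. Hspb11, a protein of ciliary transport that carries the name only, stayed in no class. After a filter on low counts 62 members were tested, and Dnajb3 and Dnajb13, testis-type J proteins at 0 in most libraries, were not.

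RNA of tibialis anterior, a fast muscle of the shin, was sequenced from C57BL/6 males aged 13 weeks. Muscles carried a vector for Crtc2, which works with the transcription factor Creb1 to switch genes on, or a GFP vector as control. The 4 groups of 3 libraries were ADF Crtc2 and ADF GFP, after 3 rounds of alternate day fasting (ADF), and Fed Crtc2 and Fed GFP, from mice fed ad libitum. The labels give neither the promoter of the vectors, nor whether the libraries of a group, or the muscles with different vectors, came from separate animals, so p-values are set by differences among the libraries of a group that may be technical only.

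HSP70 proteins bind unfolded stretches of other proteins and release them in a cycle driven by ATP. J proteins, the DNAJ families, bring the clients and switch on the ATPase of HSP70, HSP110 and BAG proteins exchange its nucleotide, and HSP90 matures kinases and hormone receptors. Small heat shock proteins hold unfolded proteins without ATP, and in striated muscle several of them sit on the sarcomere. The reticulum (Hspa5, Hsp90b1) and the mitochondria (Hspa9, Hspd1, Hspe1) have machines of their own, each with its own J proteins, and each compartment answers to its own stress response.

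Promoter windows from RefSeq (GRCm38.p6, 250 bases before to 50 bases after an annotated start) were found for 52 members. Stretches are shown where a window held, before the start, a full motif of these stress responses or of Creb1. The heat shock element, bound by heat shock factor 1, was searched as GAANNTTCNNGAA or TTCNNGAANNTTC on both strands. It stood in 4 of the 52 members (7.69%) and in 0.662% of all 27025 genes with a window. Windows of Hspa1a, Hspa1b, Dnajb1 and Hspb1 held no match. Only exact matches were counted, so a window without one may still hold a site that departs from these letters. In Dnajb6 it began 46 bases before the nearer of 2 annotated starts, and in Hsph1 it lay after the start. The divergent pair Hspd1 and Hspe1 shared a single stretch with overlapping motifs in both orders, at -144 to -127 from 1 of 2 RefSeq starts of Hspd1 and -89 to -72 from that of Hspe1. In the lines below the motif is in capitals, and the strand is that of the gene. The stretches of Dnajb6, Hspd1 and Hspa5 are shown with 5 bases on each side, since a GENCODE M21 transcript has them in its 5′ UTR.
Dnajb6 (chr5:29735847-29735869, plus strand): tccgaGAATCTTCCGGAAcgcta
Hspd1 (chr1:55088054-55088081, minus strand): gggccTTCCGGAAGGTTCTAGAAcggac
The reticulum stress element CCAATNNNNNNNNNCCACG, the site of the unfolded protein response, stood in Hspa5, Hsp90b1 and Dnajc3. These are 3 of 7 members of the reticulum lumen with a window, 5.77% of the 52 members and 0.137% of all genes. Hsp90b1 held it in 2 places, on opposite strands.
Hspa5 (chr2:34772020-34772048, plus strand): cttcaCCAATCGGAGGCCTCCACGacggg
Dnajc3 (chr14:118937807-118937865, plus strand): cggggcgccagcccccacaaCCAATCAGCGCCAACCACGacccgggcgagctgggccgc
Hsp90b1 (chr10:86705513-86705676, minus strand): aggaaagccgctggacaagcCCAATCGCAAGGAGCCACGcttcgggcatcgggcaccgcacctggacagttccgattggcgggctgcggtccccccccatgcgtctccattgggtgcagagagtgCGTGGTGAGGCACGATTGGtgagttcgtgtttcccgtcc
The cAMP response element TGACGTCA, the site of Creb1, stood in Dnajc27 alone, 1.92% of the 52 members against 2.03% of all genes. Its core TGACG, which is part of the full element on each strand, was in 29 members (55.8%) and in 23.0% of all genes.
Dnajc27 (chr12:4082538-4082585, plus strand): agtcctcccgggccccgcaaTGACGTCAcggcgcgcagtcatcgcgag

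Libraries held 24232450 to 34610417 counts and 14313 to 17226 detected genes. Levels are CPM, counts scaled to a common library size with TMM factors. The transcript of Crtc2 was at 42.8, 40.5 and 31.4 CPM in ADF Crtc2 muscle and 19.7, 16.1 and 23.6 CPM in ADF GFP muscle, and at 64.8, 58.2 and 77.9 CPM in Fed Crtc2 muscle and 29.2, 17.3 and 24 CPM in Fed GFP muscle. The groups did not overlap, and neither difference passed in edgeR's test (adjusted p = 0.127 under ADF and 0.134 in fed muscle). In fed muscle it passed with DESeq2 (adjusted p = 0.00047) and without a filter on low counts (0.00101). The 9 markers of fast fibres summed to 125891 to 220953 CPM with overlapping groups. Within that sum, 1 marker was higher and 1 lower under ADF with each vector at an adjusted p under 0.05 in edgeR's test. Acta1 averaged 57044 CPM in ADF Crtc2 and 28196 CPM in Fed Crtc2 muscle, while Mylpf averaged 17245 and 26911 CPM. Fed Crtc2 replicate 1 lay apart from the others on the second principal component. For the comparisons it entered, counts of all members are also given without it. The text also says where the call of a single gene was lost without it.

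Per kilobase of exon, the chaperone message of this muscle was mostly that of small heat shock proteins. They made up 57.4 to 67.3% of the summed CPM per kb of the 64 members in every library. Hspb6 (HSP20, a target of cyclic nucleotide-dependent kinases) led the order with 1531, 1069.9, 1129 and 779 CPM per kb on average in ADF Crtc2, ADF GFP, Fed Crtc2 and Fed GFP muscle. After it came Hsp90ab1, Hspb7, Hspb8, Hspa9, Hspb1, Hspb2 and Hspa8, each with a mean over all libraries above 100 CPM per kb, and the first 10 members held 83.1% of the sum. The heat-induced HSP70 genes Hspa1a and Hspa1b were at the low end, between 0 and 4.45 CPM in every library. Since these copies are nearly identical and could share reads, their values, from 425 and 410 counts in all, are uncertain. The sum itself was 3308 to 5152 CPM per kb in the ADF libraries and 2604 to 3747 CPM per kb in the fed libraries, with overlap.

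**Figure D1:**
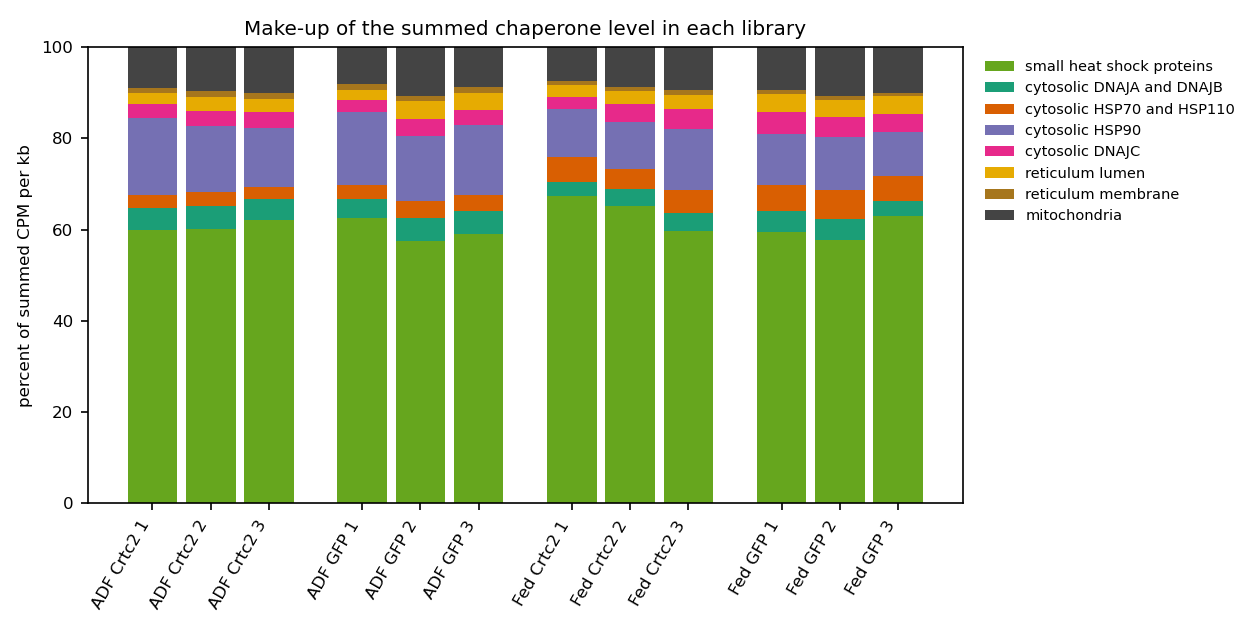
Stacked bars show for each library (x axis) the percent of the summed CPM per kb of exon held by each class of members (y axis, 0 to 100%; the remainder under 0.1% is Hspb11). Small heat shock proteins hold 57.4 to 67.3%, and cytosolic HSP70 and HSP110 hold at most 3.78% in ADF libraries and at least 4.45% in fed libraries.

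The make-up shifted with diet. Cytosolic HSP70 and HSP110 held 2.66 to 3.06% of the sum in ADF Crtc2 muscle, against 4.45 to 5.61% in Fed Crtc2 muscle, and 3.26 to 3.78% in ADF GFP muscle, against 5.46 to 6.25% in Fed GFP muscle. All 6 ADF libraries were thus below all 6 fed libraries. Hspb7 held 15.2% ± 2.5 in ADF Crtc2 and 7.48% ± 1.7 in Fed Crtc2 muscle, and 14.2% ± 1.28 in ADF GFP and 7.39% ± 0.685 in Fed GFP muscle (SD, n = 3 each). Outside the cytosol, the reticulum membrane class held 1.13 to 1.23% in ADF GFP muscle, against 0.702 to 0.966% in Fed GFP muscle. In ADF Crtc2 muscle it held 1.03 to 1.33%, against 0.740 to 1.04% in Fed Crtc2 muscle, with overlap. Shares of a sum are tied to each other, and these were not tested.

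ADF was compared with feeding in muscle with each vector, which asks how the fasting regimen moved each part of this network. In Crtc2 muscle 13 members rose and 2 fell, against a background of 6.3% of all 16007 genes tested that rose and 4.68% that fell. In GFP muscle 7 members rose and 0 fell, against 4.06% and 3.06% of all genes. Calls have an adjusted p under 0.05 in edgeR's quasi-likelihood test, as have all calls below. Without adjustment 25 members in Crtc2 muscle and 22 in GFP muscle had a p under 0.05, beside 24.4% and 19.8% of all genes. In Crtc2 muscle DESeq2 called 14 members as higher and 6 as lower, beside 7.19% and 8.46% of all genes. In GFP muscle it called 7 as higher and 0 as lower, beside 5.25% and 4.97%. The median log2 fold change of the 62 tested members was 0.31 in Crtc2 muscle and 0.25 in GFP muscle, beside -0.13 and -0.0085 over all genes.

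Without Fed Crtc2 replicate 1, which lay apart, 11 members rose and 1 fell in Crtc2 muscle, beside 4.27% and 3.32% of all genes. The comparisons in Crtc2 and GFP muscle share no library, but a single fit of all 12 libraries set the spread for both. Whether they share animals is not given. All 7 members called in GFP muscle were also called in Crtc2 muscle with the same sign, where they are 46.7% of the 15 calls. They were Dnaja2, Dnaja4, Hsp90ab1, Hspb7, Dnajb9, Dnajb12 and Hspa9, which belong to the cytosol, the reticulum and the mitochondria. Over all genes 66.8% of the calls in GFP muscle were called in Crtc2 muscle as well. Every ADF library lay above every fed library, with both vectors together, for 13 members, and the reverse held for Hspa12a alone, beside 5.65% and 4.07% of all genes. In bulk muscle, fewer cells of a type and less RNA per cell cannot be told apart.

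**Figure D2:**
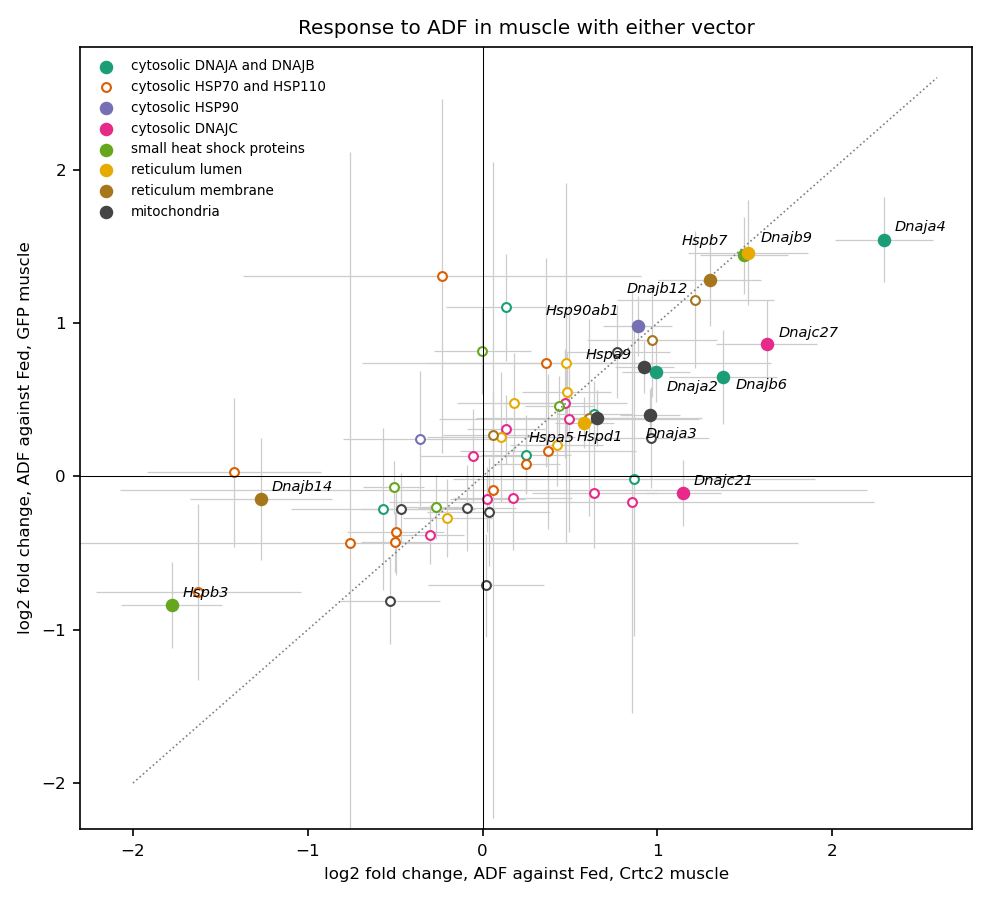
Each point is a member, with its log2 fold change for ADF against Fed in Crtc2 muscle (x axis) and in GFP muscle (y axis). Lines are standard errors, some of which run past the axes for low genes, colours mark the classes, filled and named points passed in at least 1 comparison, the dotted line marks equal changes, and Hspb11 is not drawn. The members called with both vectors lie in the upper right, between 0.89 and 2.30 in Crtc2 muscle and between 0.68 and 1.54 in GFP muscle.

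Counts of calls moved with the scaling. With library totals in place of TMM factors, the median of all genes shifted by -0.29 in Crtc2 muscle and by -0.095 in GFP muscle. The share of higher genes among all calls was then 29.3% in place of 57.4% in Crtc2 muscle and 44.4% in place of 57.0% in GFP muscle. Of the members, 11 rose and 6 fell in Crtc2 muscle under that scaling, beside 3.19% and 7.71% of all genes, and 6 rose and 1 fell in GFP muscle, beside 2.97% and 3.72%, and no called member changed its sign. The share of higher genes was 45.9% with DESeq2 in Crtc2 muscle and 45.5% in GFP muscle when genes averaging under 10 CPM were dropped. TMM factors were 0.838 to 0.894 in ADF Crtc2 libraries, against 0.981 to 1.19 in Fed Crtc2 libraries, and 0.890 to 1.07 in ADF GFP libraries, against 1.03 to 1.16 in Fed GFP libraries.

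Summed markers of other cells also differed between the diets. The 6 slow-fibre markers summed to 107 to 166 CPM in ADF Crtc2 muscle, against 223 to 425 CPM in Fed Crtc2 muscle, and the 4 smooth muscle markers to 72.3 to 88.8 CPM, against 123 to 133 CPM. In GFP muscle smooth muscle markers summed to 104 to 115 CPM under ADF, against 122 to 245 CPM in fed muscle, and the 6 macrophage markers to 237 to 415 CPM, against 161 to 230.0 CPM. Of 11 marker lists, 6 did not overlap between the diets in Crtc2 muscle and 3 in GFP muscle. No list had a member at 0 in all libraries. The others without overlap in Crtc2 muscle were endothelium and T and NK cells, lower under ADF, and Schwann and satellite cells, higher. In GFP muscle the other was satellite cells, higher. In Crtc2 muscle the satellite marker Cdh15 averaged 25.9 CPM under ADF and 9.85 CPM in fed muscle. Pax7 (1.08 and 4.78 CPM) and Myf5 (0.317 and 0.927 CPM) went the other way. The share of all genes without overlap between groups of 3 was not counted. The part of these cells in the results on chaperones was not tested.

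Among 8 tested cytosolic and nuclear members of the DNAJA and DNAJB families, 3 rose in Crtc2 muscle and 2 in GFP muscle, 0 fell, and the medians were 0.75 and 0.53. For this and each class below, the background was 6.3% of all genes higher and 4.68% lower in Crtc2 muscle. In GFP muscle it was 4.06% higher and 3.06% lower. Dnaja4 (chromosome 9, 54698873 to 54716315, plus strand), a J protein of cytosolic HSP70, was at 157, 115 and 109.6 CPM in ADF Crtc2 muscle, against 27, 26.3 and 24.3 CPM in Fed Crtc2 muscle. With the GFP vector it was at 101, 83.3 and 77.2 CPM in ADF GFP muscle, against 15.7, 39.3 and 34.7 CPM in Fed GFP muscle. With either vector the diets stood apart, and the log2 fold changes were 2.30 ± 0.28 (adjusted p = 1.18e-05) and 1.54 ± 0.27 (adjusted p = 0.00102), with ± for the SE here and below. In the GENCODE M21 annotation 44.1% of its exon bases lie opposite exons of Wdr61 on the other strand, and the strand setting of the counting is not given in the sources used here. Wdr61 had 6310 counts in all, against 22408 for Dnaja4, and log2 fold changes of -0.13 ± 0.38 in Crtc2 muscle and -0.14 ± 0.38 in GFP muscle.

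Dnaja2, a close relative with the same task, was at 349.6, 298 and 286 CPM in ADF Crtc2 muscle, against 179, 173 and 117 CPM in Fed Crtc2 muscle. Its values were 233, 253 and 254 CPM in ADF GFP muscle, against 164, 178 and 119 CPM in Fed GFP muscle. All ADF libraries were above all fed libraries, with log2 fold changes of 0.99 ± 0.20 (adjusted p = 0.00172) and 0.68 ± 0.20 (adjusted p = 0.0349). The call in GFP muscle was lost when ADF GFP replicate 1, 2 or 3 or Fed GFP replicate 1 or 3 was left out (adjusted p from 0.0640 to 0.167), with library totals (0.0847), without robust spread estimates (0.0514) and in a fit of the 2 groups alone (0.0705). Dnajb6, which keeps proteins from aggregating at the Z-disc and is mutated in a human limb-girdle muscular dystrophy, was at 41.4, 31 and 42.1 CPM in ADF Crtc2 muscle, against 15.3, 12.2 and 16.6 CPM in Fed Crtc2 muscle. It had 43, 30.5 and 27.5 CPM in ADF GFP muscle, against 27, 19.8 and 17.6 CPM in Fed GFP muscle. Levels under ADF were above those in fed muscle with both vectors, and it passed in Crtc2 muscle (1.38 ± 0.31, adjusted p = 0.00514) and not in GFP muscle (0.65 ± 0.31, adjusted p = 0.242). Among called cytosolic members with a window (Hsp90ab1 had none) it alone held the heat shock element shown above.

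**Figure D3:**
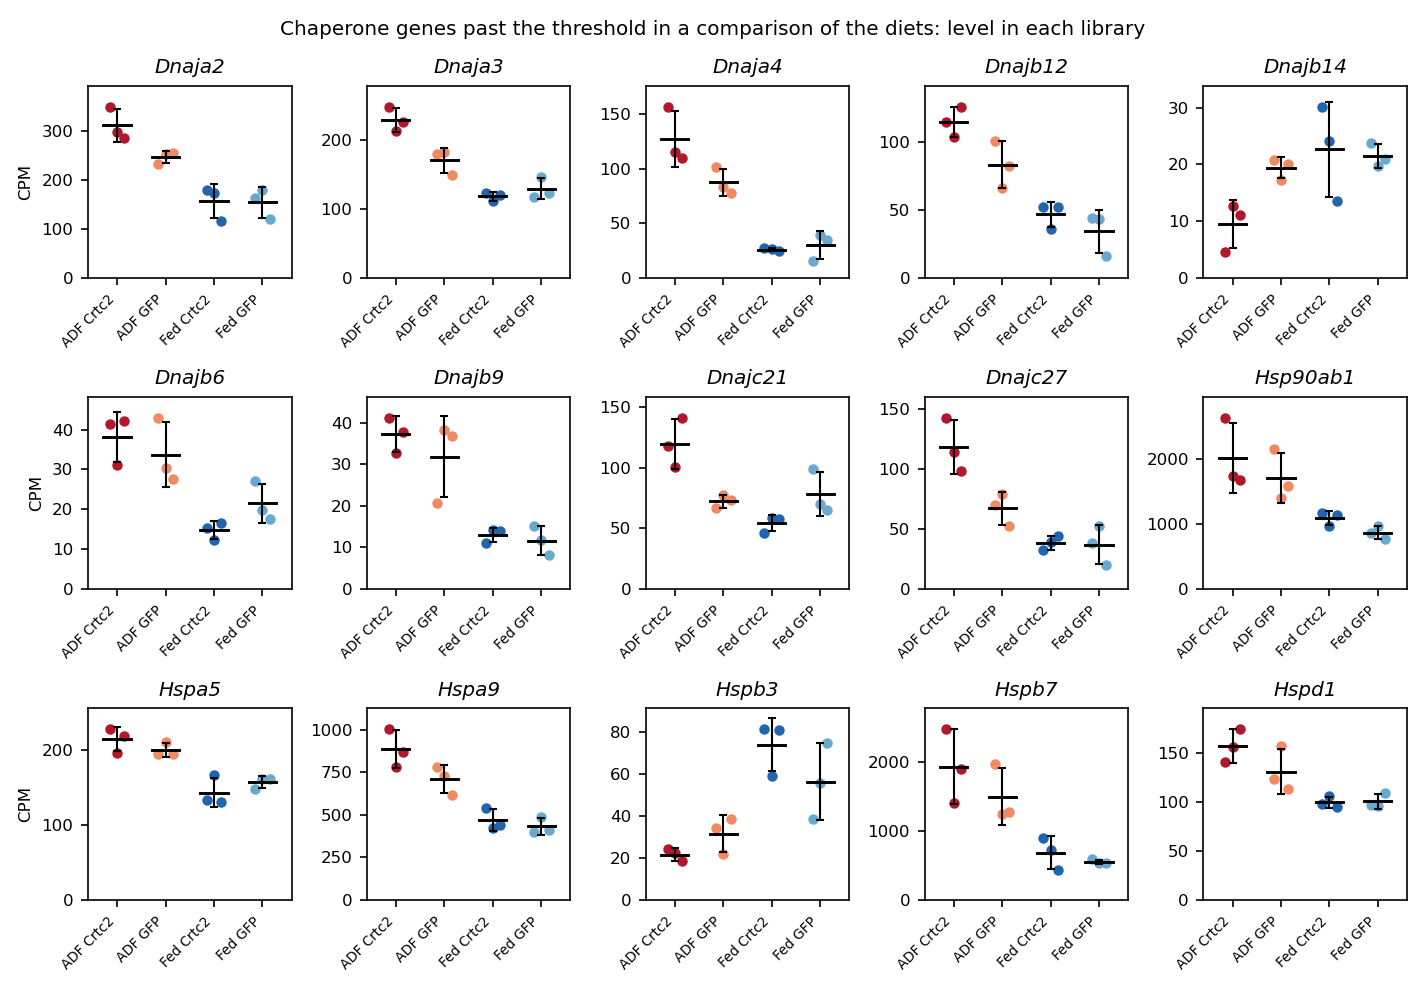
Dots give the level in CPM (y axis, from 0) of the 15 members past the threshold in either diet comparison, in each of 3 libraries of ADF Crtc2, ADF GFP, Fed Crtc2 and Fed GFP muscle (x axis). Long bars are means and error bars SD, and in Crtc2 muscle 13 members are higher under ADF while Hspb3 and Dnajb14 are lower. In GFP muscle Dnajc21 averages 72.4 CPM under ADF and 78.0 CPM in fed muscle.

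The other members of these families did not pass. Dnajb4 and Dnajb5, relatives of HSP40, had 0.13 ± 0.34 (adjusted p = 0.886) and 0.64 ± 0.22 (adjusted p = 0.063) in Crtc2 muscle, and 1.10 ± 0.35 (adjusted p = 0.0585) and 0.41 ± 0.22 (adjusted p = 0.311) in GFP muscle. For Dnajb4 in GFP muscle the ADF libraries (49.1, 61.3 and 65 CPM) were above the fed libraries (19.2, 41.3 and 21.2 CPM), and without Fed GFP replicate 2 it passed (1.5, adjusted p = 0.0140). Without Fed Crtc2 replicate 3 Dnajb5 passed in Crtc2 muscle (0.94, adjusted p = 0.00603). Dnajb2, a J protein with ubiquitin-binding motifs, had 0.25 ± 0.26 and 0.14 ± 0.26. Dnajb1, the classical HSP40 of the heat shock response, lay between 0 and 11.9 CPM and Dnaja1 between 2.81 and 25.3 CPM, and neither separated the diets. For Dnaja1 the log2 fold changes were -0.57 ± 0.53 in Crtc2 muscle and -0.21 ± 0.53 in GFP muscle.

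Cytosolic HSP70 and HSP110 genes gave no call. Of 10 members 0 passed in either comparison by edgeR, with 3 in Crtc2 muscle and 1 in GFP muscle at an unadjusted p under 0.05, beside 24.4% and 19.8% of all genes, and the medians were -0.37 and -0.031. On leaving out a library they lay between -0.56 and 0.066 in Crtc2 muscle and between -0.31 and 0.17 in GFP muscle. Hspa8 (HSC70, the constitutive HSP70) was at 404, 361 and 334 CPM in ADF Crtc2 muscle, against 710.0, 402 and 444 CPM in Fed Crtc2 muscle. It was at 416, 348 and 335 CPM in ADF GFP muscle, against 486, 549 and 441 CPM in Fed GFP muscle. The diets did not overlap in GFP muscle and did in Crtc2 muscle, and the log2 fold changes were -0.50 ± 0.20 (adjusted p = 0.112) and -0.43 ± 0.20 (adjusted p = 0.228). In Crtc2 muscle DESeq2 (adjusted p = 0.0464), library totals (0.00511), a filter at a mean of 10 CPM (0.0261) and leaving out Fed Crtc2 replicate 2 (0.0468) placed it past the threshold as lower under ADF. The exchange factors Hsph1 and Hspa4 had -0.50 ± 0.28 and 0.25 ± 0.19 in Crtc2 muscle, and -0.36 ± 0.28 and 0.082 ± 0.19 in GFP muscle. None of the 4 passed, the lowest adjusted p being 0.286. Hspa12a, a distant relative of HSP70 named here after its values were seen, was at 4.49, 5.84 and 4.34 CPM in ADF Crtc2 and 3.81, 6.33 and 4.09 CPM in ADF GFP muscle, against 8.4, 14.2 and 22.7 CPM in Fed Crtc2 and 7.08, 6.52 and 10.4 CPM in Fed GFP muscle.

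Of the cytosolic HSP90 pair 1 gene passed. Hsp90ab1 (chromosome 17, 45567775 to 45573271, minus strand), the constitutive cytosolic HSP90, was at 2631, 1733 and 1670.2 CPM in ADF Crtc2 muscle, against 1161, 970.1 and 1129 CPM in Fed Crtc2 muscle. In the control it was at 2141, 1394 and 1575 CPM in ADF GFP muscle, against 859, 958 and 768 CPM in Fed GFP muscle. The diets did not overlap, and it rose in Crtc2 muscle (0.89 ± 0.20, adjusted p = 0.00434) and in GFP muscle (0.98 ± 0.20, adjusted p = 0.00295). ADF Crtc2 replicate 1 was the highest library, and without it the adjusted p in Crtc2 muscle was 0.0525. Hsp90aa1, the inducible form, lay between 5.18 and 25.7 CPM over all libraries and did not pass (-0.36 ± 0.44 and 0.25 ± 0.44).

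Of 6 small heat shock proteins 1 rose and 1 fell in Crtc2 muscle and 1 rose in GFP muscle, and the others did not pass. Hspb7 (chromosome 4, 141420779 to 141425311, plus strand), a heart and muscle protein that binds the Z-disc protein filamin C, was at 2484, 1405 and 1904 CPM in ADF Crtc2 muscle, against 900.4, 719.6 and 435 CPM in Fed Crtc2 muscle. Its GFP values were 1969.9, 1241 and 1279 CPM in ADF GFP muscle, against 588, 528 and 536 CPM in Fed GFP muscle. Every ADF library was above every fed library, and the rise was 1.49 ± 0.25 (adjusted p = 0.000489) in Crtc2 and 1.44 ± 0.25 (adjusted p = 0.00108) in GFP muscle. Hspb3, a muscle-enriched partner of Hspb2, was at 24.1, 22.2 and 18.3 CPM in ADF Crtc2 muscle, against 81.5, 59.1 and 80.9 CPM in Fed Crtc2 muscle, and at 34.1, 21.7 and 38.6 CPM in ADF GFP muscle, against 38.4, 55.6 and 74.8 CPM in Fed GFP muscle. It fell in Crtc2 muscle, where the groups did not overlap (-1.78 ± 0.29, adjusted p = 0.000273). In GFP muscle the groups overlapped (-0.84 ± 0.28, adjusted p = 0.0814), and without Fed GFP replicate 1 the adjusted p there was 0.0314.

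The remaining small heat shock proteins did not pass. Hspb8, which works with Bag3 in the selective autophagy of damaged filamin, was at 528, 499.8 and 461 CPM in ADF Crtc2 muscle, against 716, 672 and 729 CPM in Fed Crtc2 muscle. Its log2 fold changes were -0.51 ± 0.17 (adjusted p = 0.063) in Crtc2 muscle and -0.072 ± 0.17 (adjusted p = 0.903) in GFP muscle. The groups did not overlap in Crtc2 muscle, and the value there was past the threshold with DESeq2 (adjusted p = 0.00855), library totals (0.00140), RLE factors (0.0442), the filter at 10 CPM (0.0128) and a fit of the 2 groups (0.0391). Hspb6 had 0.44 ± 0.20 (adjusted p = 0.178) and 0.46 ± 0.20 (adjusted p = 0.201). Hspb1 (HSP27), which caps actin filaments, had -0.00056 ± 0.28 in Crtc2 muscle and 0.82 ± 0.28 (adjusted p = 0.092) in GFP muscle. Without ADF GFP replicate 2 it passed in GFP muscle (1.03, adjusted p = 0.0411). In Crtc2 muscle it was at 173, 129 and 118 CPM under ADF, against 217, 102 and 101 CPM in fed muscle. The highest of these was Fed Crtc2 replicate 1, which lay apart, and the other fed libraries were below all ADF libraries. Hspb2, a partner of the myotonic dystrophy kinase, had -0.26 ± 0.21 and -0.20 ± 0.21, and 30.2% of its exon bases lie opposite exons of Cryab. Cryab, the crystallin counted outside the members, lay between 1110 and 2893 CPM and did not pass, with 1 of the 2 crystallins on its list tested (-0.39 ± 0.23 and -0.29 ± 0.23). Its highest value was in Fed Crtc2 replicate 1 (2893 CPM), against 1669 and 1386 CPM in the other Fed Crtc2 libraries.

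Cytosolic and vesicle DNAJC proteins, which have specialised tasks, gave 2 calls of 11 in Crtc2 muscle, both higher, and 0 in GFP muscle. There 1 had an unadjusted p under 0.05, beside 19.8% of all genes. The medians were 0.47 in Crtc2 muscle and -0.11 in GFP muscle. Over other scalings, other filters and left-out libraries, the first lay between 0.069 and 0.51. The second lay between -0.21 and 0.21 and so changed its sign. The response did not differ past the threshold between the vectors for either called gene (adjusted p of the diet by vector interaction 0.67 and 0.321). Dnajc27 (chromosome 12, 4082583 to 4110606, plus strand), a small GTPase with a J domain whose promoter holds the cAMP response element, was at 143, 114 and 97.9 CPM in ADF Crtc2 muscle, against 32.3, 38.9 and 43.7 CPM in Fed Crtc2 muscle. It was at 69.6, 79.2 and 52.2 CPM in ADF GFP muscle, against 38.5, 52 and 19.9 CPM in Fed GFP muscle. ADF libraries were above fed libraries with both vectors, narrowly so with GFP, and the changes were 1.62 ± 0.29 (adjusted p = 0.000614) and 0.87 ± 0.28 (adjusted p = 0.0709). Without Fed GFP replicate 2 it passed in GFP muscle too (1.17, adjusted p = 0.0163).

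Dnajc21, which takes part in the maturation of the large ribosomal subunit, was at 118, 100.3 and 142 CPM in ADF Crtc2 muscle, against 46.3, 58.2 and 57.8 CPM in Fed Crtc2 muscle. In GFP muscle it was at 66.5, 77.2 and 73.4 CPM in ADF GFP muscle, against 98.9, 69.7 and 65.3 CPM in Fed GFP muscle. It rose in Crtc2 muscle (1.15 ± 0.22, adjusted p = 0.00105), and in GFP muscle the diets overlapped (-0.11 ± 0.21). Dnajc5 (cysteine string protein of secretory vesicles), Dnajc7 (a link between HSP70 and HSP90) and Dnajc12 (a cochaperone of aromatic amino acid hydroxylases) had 0.13 ± 0.23, -0.30 ± 0.19 and 0.64 ± 0.36 in Crtc2 muscle. In GFP muscle the same genes had 0.31 ± 0.23, -0.38 ± 0.19 and -0.11 ± 0.36, and none passed. The other 6 members of the class lay between -0.052 and 0.85 in Crtc2 muscle and between -0.17 and 0.48 in GFP muscle.

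In the reticulum most members were higher under ADF, although only 3 passed as higher. Of 14 tested members 12 had a positive change with each vector; 3 rose and 1 fell in Crtc2 muscle and 2 rose in GFP muscle, and the medians were 0.48 and 0.43. Over all genes 44.4% and 49.4% of changes were positive. In the lumen, Dnajb9 (ERdj4, which brings Hspa5 to the stress sensor IRE1; chromosome 12, 44205559 to 44210326, minus strand) was at 41.2, 32.7 and 37.7 CPM in ADF Crtc2 muscle, against 10.9, 14.1 and 13.9 CPM in Fed Crtc2 muscle. It was at 20.6, 38.1 and 36.8 CPM in ADF GFP muscle, against 15, 11.6 and 8.08 CPM in Fed GFP muscle. The diets did not overlap, and it rose by 1.52 ± 0.34 (adjusted p = 0.00534) and 1.46 ± 0.34 (adjusted p = 0.0104). The call in GFP muscle was lost without ADF GFP replicate 2 (adjusted p = 0.0642) or 3 (0.0547).

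Hspa5 (BiP, the HSP70 of the reticulum) was at 228, 196 and 218 CPM in ADF Crtc2 muscle, against 132, 166 and 130.3 CPM in Fed Crtc2 muscle. It was at 193, 209.9 and 194 CPM in ADF GFP muscle, against 147, 160.5 and 161 CPM in Fed GFP muscle. All ADF libraries exceeded all fed libraries, by a small margin of 0.58 ± 0.17 (adjusted p = 0.0263) and 0.35 ± 0.17 (adjusted p = 0.249), so that the first passed and the second did not. The call in Crtc2 muscle was lost without ADF Crtc2 replicate 1 (adjusted p = 0.117) or 3 (0.0934), without Fed Crtc2 replicate 1 (0.106) or 3 (0.0994), without a filter on low counts (0.0790), and with library totals, where the change was 0.28 (0.365). Both other promoters with the reticulum stress element belonged to genes that did not pass. Dnajc3, an inhibitor of the kinase PERK, had 0.48 ± 0.26 and 0.55 ± 0.26 with diets that did not overlap. Hsp90b1 (GRP94), the HSP90 of the lumen, had -0.20 ± 0.26 and -0.27 ± 0.26. Dnajb11 and Dnajc10, further partners of Hspa5, had 0.42 ± 0.26 and 0.18 ± 0.32 in Crtc2 muscle, and 0.20 ± 0.26 and 0.48 ± 0.33 in GFP muscle.

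J proteins of the reticulum membrane serve the quality control of membrane proteins. Dnajb12, which works there with HSC70 of the cytosol, was at 115, 104 and 126 CPM in ADF Crtc2 muscle, against 51.8, 36.1 and 52.1 CPM in Fed Crtc2 muscle. It was at 101, 66.4 and 82.2 CPM in ADF GFP muscle, against 43.9, 43 and 16.1 CPM in Fed GFP muscle. Again without overlap, it rose by 1.30 ± 0.30 (adjusted p = 0.00547) and 1.28 ± 0.30 (adjusted p = 0.0092). The call in GFP muscle was lost without ADF GFP replicate 1 (adjusted p = 0.0528) and in a fit of the 2 groups (0.0629). Its close relative Dnajb14 went the other way, at 4.62, 12.6 and 11 CPM in ADF Crtc2 muscle, against 30.2, 24.2 and 13.6 CPM in Fed Crtc2 muscle, and fell in Crtc2 muscle (-1.27 ± 0.41, adjusted p = 0.0473). In GFP muscle it was at 20.8, 17.3 and 20.1 CPM under ADF, against 23.8, 19.6 and 21 CPM in fed muscle (-0.15 ± 0.40). The fall was not called without ADF Crtc2 replicate 1 (adjusted p = 0.223) or 3 (0.0859), without Fed Crtc2 replicate 1 (0.191) or 2 (0.115), in a fit of the 2 groups (0.0955) or without robust spread estimates (0.0557).

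**Figure D4:**
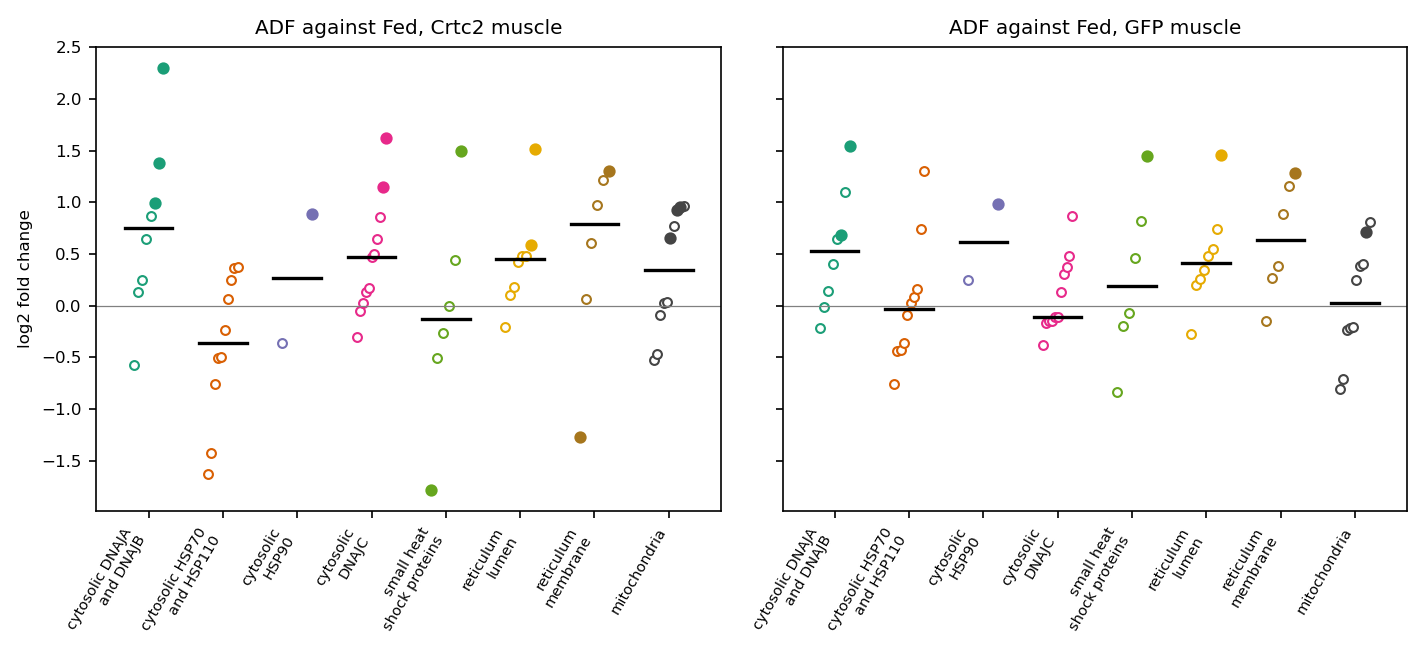
Points are members by class (x axis) with their log2 fold change for ADF against Fed (y axis), in Crtc2 muscle on the left and GFP muscle on the right. Filled points passed, bars are class medians, and Hspb11 is not drawn. Cytosolic HSP70 and HSP110 have no filled point, and both reticulum classes have medians above 0 with each vector.

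Mitochondrial members that passed were Hspa9, Dnaja3 and Hspd1. Of 10 members 3 rose in Crtc2 muscle and 1 in GFP muscle, with 0 lower, and the medians were 0.35 and 0.023. The second turned to -0.067 with library totals and -0.020 with RLE factors. Hspa9 (mortalin, the HSP70 of the matrix; chromosome 18, 34937414 to 34954357, minus strand) was at 1007, 784 and 869.9 CPM in ADF Crtc2 muscle, against 541, 419 and 440.3 CPM in Fed Crtc2 muscle. It was at 781, 731 and 618 CPM in ADF GFP muscle, against 397, 489 and 413 CPM in Fed GFP muscle. All ADF libraries were higher, and it rose by 0.93 ± 0.17 (adjusted p = 0.000875) and 0.71 ± 0.17 (adjusted p = 0.011). Without Fed GFP replicate 1 the adjusted p in GFP muscle was 0.0588.

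Dnaja3 (Tid1), the J protein that serves Hspa9 in the matrix, was at 249, 213 and 226 CPM in ADF Crtc2 muscle, against 124, 111 and 120.0 CPM in Fed Crtc2 muscle. It was at 179.5, 182 and 149.9 CPM in ADF GFP muscle, against 118, 147 and 124 CPM in Fed GFP muscle. The diets did not overlap with either vector, and it passed in Crtc2 muscle (0.96 ± 0.17, adjusted p = 0.000731) and not in GFP muscle (0.40 ± 0.17, adjusted p = 0.193). Hspd1 (HSP60), the folding chamber, was at 140.4, 155 and 175 CPM in ADF Crtc2 muscle, against 97.9, 106 and 94.8 CPM in Fed Crtc2 muscle. It was at 123, 157 and 113 CPM in ADF GFP muscle, against 96.4, 96 and 109 CPM in Fed GFP muscle. The changes were 0.66 ± 0.18 (adjusted p = 0.0234) and 0.38 ± 0.18 (adjusted p = 0.258), without overlap. The call in Crtc2 muscle was lost without ADF Crtc2 replicate 2 (adjusted p = 0.0676) or 3 (0.124), without Fed Crtc2 replicate 1 (0.0737) or 3 (0.0751), and with library totals, where the change was 0.36 (0.273). The pseudogene Hspd1-ps3 held 12.5% as many counts as Hspd1, and the call held when pseudogenes were summed with their parent genes.

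Hspe1 (HSP10), the lid of that chamber, starts beyond the other end of the promoter stretch shown for Hspd1. Its level was 57.1, 33 and 61.6 CPM in ADF Crtc2 muscle, against 34.3, 59.7 and 54 CPM in Fed Crtc2 muscle. It was 52.2, 27.8 and 33.8 CPM in ADF GFP muscle, against 37.4, 71.6 and 24.8 CPM in Fed GFP muscle. The groups overlapped in both comparisons, with 0.035 ± 0.35 and -0.23 ± 0.35, and 7.60% of its exon bases lie opposite Hspd1. Dnajc15 and Dnajc19, J proteins of the import motor, had -0.087 ± 0.28 and -0.53 ± 0.29 in Crtc2 muscle, and -0.21 ± 0.28 and -0.81 ± 0.29 in GFP muscle. For Dnajc19 the pseudogene Dnajc19-ps held 28.3% as many counts, so its level is uncertain. Dnajc28 and Dnajc30 had 0.77 ± 0.30 and 0.96 ± 0.33 in Crtc2 muscle, and 0.81 ± 0.30 and 0.25 ± 0.33 in GFP muscle, and none of these 4 genes passed. Of Dnajc30, which binds the ATP synthase, 26.2% of exon bases lie opposite Bud23.

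The comparison of Crtc2 with GFP under each diet asks what the coactivator changed. No member passed in edgeR's test in ADF muscle or in fed muscle, where 0.725% and 0% of all genes did. At an unadjusted p under 0.05 there were 8 members in ADF muscle, beside 11.3% of all genes, and 3 in fed muscle, beside 5.44%, or 0 in fed muscle without Fed Crtc2 replicate 1. DESeq2 called 1 member in ADF muscle as higher (Dnajc21) and 0 as lower, beside 0.787% and 2.69% of all genes, and 0 in fed muscle, beside 0.219% and 0.181%. With library totals 1 was lower in ADF muscle (Hspb8) and 0 were higher, beside 0.931% and 0.0125%. The median of the members was 0.14 in ADF muscle, where it turned to -0.063 with library totals, and 0.082 in fed muscle, against -0.012 and 0.0063 over all genes. With library totals the median of all genes in ADF muscle shifted by -0.20.

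The members under that unadjusted threshold, named here for it, are given with their values. Dnajc21, with the per-library values above, had 0.73 ± 0.21 (adjusted p = 0.134) in ADF muscle and -0.53 ± 0.21 (adjusted p = 0.877) in fed muscle, without overlap in either. In ADF muscle Dnajc27 was at 143, 114 and 97.9 CPM with Crtc2 and 69.6, 79.2 and 52.2 CPM with GFP, without overlap (0.82 ± 0.28, adjusted p = 0.249). Dnajc12 was at 29.9, 29.5 and 30.5 CPM in ADF Crtc2 and 16.7, 17.9 and 10.8 CPM in ADF GFP muscle, again without overlap (0.99 ± 0.36, adjusted p = 0.282). Dnaja3, Dnajc15 and Hspb6 also had higher values with Crtc2 (0.43 ± 0.17, 0.70 ± 0.28 and 0.52 ± 0.20), and Hspb8 and Dnajb14 had lower ones (-0.45 ± 0.17 and -1.04 ± 0.40). Their adjusted p lay between 0.319 and 0.342. In fed muscle Hspb6 was at 3213, 2695 and 1877 CPM with Crtc2 and 1751, 1554 and 2068 CPM with GFP, with overlap (0.53 ± 0.20, adjusted p = 0.877). Hspa12b, the endothelial relative of HSP70, had 1.08 ± 0.49 in fed muscle. There the endothelial markers summed to 272 to 362 CPM with Crtc2 and 204 to 449 CPM with GFP, with overlap, and the macrophage markers to 82 to 154 CPM and 161 to 230.0 CPM, without overlap. In ADF muscle the endothelial markers summed to 165 to 238 CPM with Crtc2 and 239 to 368 CPM with GFP, and macrophage markers to 59.3 to 115 CPM and 237 to 415 CPM. Of 11 marker lists 7 did not overlap in ADF muscle and 1 in fed muscle. The share of all genes without overlap was not counted here either. The others in ADF muscle were slow fibres, fibroblasts, T and NK cells and smooth muscle, lower in sum with Crtc2, and Schwann cells, higher. Slow-fibre Myl3 averaged 92.9 CPM in ADF Crtc2 and 90.0 CPM in ADF GFP muscle. Smooth muscle Tagln averaged 29.6 and 27.1 CPM. The other markers of both lists were lower with Crtc2. The part of these cells in the values of the members was not tested.

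**Figure D5:**
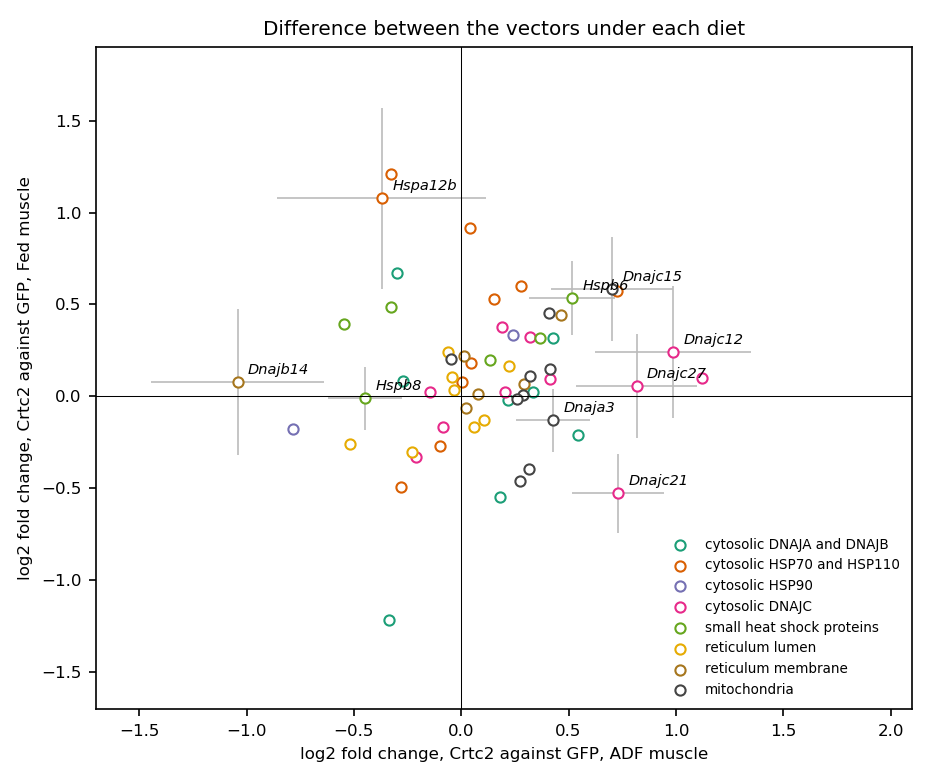
Each circle is a member, with its log2 fold change for Crtc2 against GFP in ADF muscle (x axis) and in Fed muscle (y axis), coloured by class, with Hspb11 not drawn. Lines are standard errors for the named members, which had an unadjusted p under 0.05 in either comparison. No member passed after adjustment, and Dnajc21 lies at 0.73 and -0.53.

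The diet by vector interaction, which subtracts the effect of Crtc2 in fed mice from its effect under ADF, was past the threshold for 0 members in edgeR, as it was for 0% of all genes. At an unadjusted p under 0.05 there were 4 members (Dnajc21, Dnaja3, Hspb3 and Hspa12b), beside 7.75% of all genes, or 2 without Fed Crtc2 replicate 1. DESeq2 called 1 as positive (Dnajc21) and 0 as negative, beside 0.162% and 0.531% of all genes. The interaction was 0.56 ± 0.24 (adjusted p = 0.62) for Dnaja3, -0.94 ± 0.40 (adjusted p = 0.612) for Hspb3 and 0.75 ± 0.38 (adjusted p = 0.655) for Dnaja4.

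Partners of these machines were taken from 6 lists of 67 genes, chosen with earlier results of these data known. Of 20 partners and exchange factors of HSP70 and HSP90, 4 rose in Crtc2 muscle and 3 in GFP muscle under ADF, and 0 fell. Beside these, 6.3% and 4.06% of all genes rose. Bag3, the exchange factor that joins Hspb8 to HSP70, was at 206, 202 and 226 CPM in ADF Crtc2 muscle, against 147, 132 and 114 CPM in Fed Crtc2 muscle. It was at 277, 225 and 208 CPM in ADF GFP muscle, against 92.8, 82.3 and 108 CPM in Fed GFP muscle. ADF libraries were the higher ones throughout, and it rose by 0.69 ± 0.18 (adjusted p = 0.0151) and 1.32 ± 0.18 (adjusted p = 8.21e-05). The first call was lost with library totals (0.179) and without ADF Crtc2 replicate 3 (0.0722) or Fed Crtc2 replicate 3 (0.0699). Bag6 rose by 1.00 ± 0.19 and 0.95 ± 0.19, and Fkbp5, an HSP90 cochaperone induced by glucocorticoids, by 3.21 ± 0.60 and 2.38 ± 0.58. For Fkbp5 the call in GFP muscle was lost without ADF GFP replicate 1, 2 or 3 or Fed GFP replicate 1 (adjusted p from 0.0705 to 0.147). Sugt1, an HSP90 adaptor, rose in Crtc2 muscle (0.71 ± 0.23, adjusted p = 0.0479), a call lost on leaving out any of the 6 libraries compared (0.0763 to 0.150) and with library totals (0.267), RLE factors (0.0581), either other filter (0.0594 and 0.0729) or a replicate block (0.0577). In GFP muscle Sugt1 did not pass, at 68.9, 68.4 and 55.2 CPM under ADF, against 29.2, 50.2 and 41 CPM in fed muscle. These values did not overlap. Of 4 tested heat shock factors and regulators 0 passed with edgeR in either diet comparison. In each, 1 had an unadjusted p under 0.05, beside 24.4% of all genes in Crtc2 muscle and 19.8% in GFP muscle. Hsf1, the main activator of heat shock genes, had 0.41 ± 0.28 in Crtc2 muscle and -0.036 ± 0.28 in GFP muscle.

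Of 18 genes of reticulum folding and its stress response, 2 rose and 1 fell in Crtc2 muscle, and 1 rose and 1 fell in GFP muscle. For this list and those below, 6.3% of all genes rose and 4.68% fell in Crtc2 muscle. In GFP muscle 4.06% of all genes rose and 3.06% fell. Canx, the lectin chaperone calnexin, rose by 1.11 ± 0.21 and 1.19 ± 0.21, and the stress sensor Atf6 by 1.59 ± 0.32 (adjusted p = 0.00211) in Crtc2 muscle. Atf6 did not pass in GFP muscle, at 47.1, 57.3 and 54 CPM under ADF, against 27.2, 34.7 and 16.3 CPM in fed muscle. The diets did not overlap there, and over the alternatives its change was 0.77 to 1.25 (adjusted p from 0.0161 to 0.202). Ddit3 (CHOP), the transcription factor of prolonged reticulum stress, fell to 11.7, 14.6 and 18.5 CPM in ADF Crtc2 muscle, against 69, 45.5 and 57.3 CPM in Fed Crtc2 muscle, a change of -1.94 ± 0.30, and by 1.35 ± 0.30 in GFP muscle. Of 13 mitochondrial partners and proteases, 3 rose in Crtc2 muscle and 2 in GFP muscle. The unfoldase Clpx rose by 1.56 ± 0.22 and 1.33 ± 0.22 and the protease Spg7 by 0.82 ± 0.20 and 0.71 ± 0.20, and the protease Lonp1 rose in Crtc2 muscle (0.85 ± 0.20, adjusted p = 0.00703). Lonp1 did not pass in GFP muscle, at 159, 123 and 101 CPM under ADF, against 96.7, 125 and 91.1 CPM in fed muscle. These values overlapped. For Spg7 the call in Crtc2 muscle was lost without Fed Crtc2 replicate 2 (adjusted p = 0.0583), that in GFP muscle without ADF GFP replicate 1, 2 or 3 or Fed GFP replicate 1 (0.0576 to 0.168) and in a fit of the 2 groups (0.0808), and both with library totals (0.0695 and 0.0689). Of 8 subunits of the cytosolic chaperonin TRiC, Tcp1 rose in Crtc2 muscle (0.65 ± 0.21, adjusted p = 0.0479) and 0 passed in GFP muscle. There 1 had an unadjusted p under 0.05, beside 19.8% of all genes. Tcp1 was not called without ADF Crtc2 replicate 1, 2 or 3 or Fed Crtc2 replicate 1 or 3 (adjusted p from 0.0615 to 0.203), nor with library totals (0.381), RLE factors (0.0549), the filter at 10 CPM (0.0618), a fit of the 2 groups (0.0551) or without robust spread estimates (0.0608).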

How the data were processed

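Gene counts of 12 mouse muscle libraries were used as deposited by the authors. Per the submitters' processing notes the tools were DESeq2 1.18.1, Subread 1.6.1 (featureCounts), HISAT2 2.0.5 and SAMtools 1.7, on GRCm38. Their roles and the strand setting are not given in the sources used here, and the labels' protocols name 2 stranded library kits without saying which library had which.

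The test on counts was that of edgeR 4.0.16 (R 4.3.3): TMM factors, filterByExpr, robust quasi-likelihood fits of 4 group means to 16007 genes, and Benjamini-Hochberg adjusted p-values with a threshold of 0.05. DESeq2 1.42.0, other scalings, other filters, a fit of the 2 groups compared, a replicate block and leaving out each library were alternatives. The row without a symbol held 0.0555% of counts. A count of 0 allows up to 0.0813 to 0.130 CPM, by counting error only. Gene coordinates (GRCm38) and exon lengths are from GENCODE M21. Fits were tested on simulated data. Same-numbered libraries of different groups did not deviate together (r from -0.12 to 0.31, with 1 of 18 pairs over 0.1), so they were not treated as pairs. The labels do not say whether they are pairs, and values from 3 libraries a group cannot exclude it.

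The members, the gene lists and the list of 38 members to name were chosen with earlier results of these data known. Every member past the threshold was named too.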

Additional observations from a re-analysis of the deposited data

Results flagged for a closer look

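Dnajc21 stood out because its Crtc2 libraries lay below every GFP library in fed muscle and above every GFP library under ADF. It was at 46.3, 58.2 and 57.8 CPM in Fed Crtc2 muscle, against 98.9, 69.7 and 65.3 CPM in Fed GFP muscle, a log2 fold change of -0.53 ± 0.21 (adjusted p = 0.877). Under ADF it was at 118, 100.3 and 142 CPM in ADF Crtc2 muscle, against 66.5, 77.2 and 73.4 CPM in ADF GFP muscle, a change of 0.73 ± 0.21 (adjusted p = 0.134). The diet by vector interaction was 1.26 ± 0.30, with an adjusted p of 0.321 in edgeR, which did not pass, and of 0.0178 in DESeq2, which did. Over 20 alternatives it lay between 1.05 and 1.37, with adjusted p from 0.0178 to 0.745. Fed GFP replicate 1 was the highest fed library, and over 15 alternatives the change in fed muscle lay between -0.64 and -0.32, with -0.32 found without that library.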

How the results depend on the processing

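Of 22 calls of a member in a comparison, 14 held under every alternative and 8 were lost on leaving out a library, 5 of these under another setting too, and none of the 330 alternative values reversed. The number of members past the threshold under ADF was 5 to 10 in GFP muscle and 12 to 20 in Crtc2 muscle, 5 to 9 and 12 to 15 on leaving out a library. Over all genes, 677 to 1635 passed in GFP muscle and 1129 to 2505 in Crtc2 muscle, of 7839 to 22607 tested. On leaving out a library these were 677 to 1230 and 1129 to 1456. With Crtc2 against GFP in ADF muscle, 1 member passed with library totals (Hspb8), 1 with DESeq2 and 1 in a fit of the 2 groups (Dnajc21), and 1 had a diet by vector interaction with DESeq2 (Dnajc21), where edgeR gave 0. In ADF muscle 151 of all 16007 genes passed with library totals, 556 with DESeq2 and 300 of 14099 in the fit of the 2 groups. The interaction passed with DESeq2 for 111 of 16007 genes. With a replicate block 8 members rose in GFP muscle and 13 rose and 2 fell in Crtc2 muscle, with 0 in the vector comparisons and the interaction. Of all 16007 genes, 1088 then passed in GFP muscle, 639 as higher, and 1664 in Crtc2 muscle, 978 as higher. For Crtc2 against GFP 106 genes passed in ADF muscle and 0 in fed muscle, and 0 for the interaction. Under the block Dnajb14 was no longer past the threshold in Crtc2 muscle (adjusted p = 0.0784) and Dnajb4 was in GFP muscle (0.0383), so the 2 that fell in Crtc2 muscle were Hspb3 and a member outside the named ones. The labels do not say whether the numbers pair the libraries, so whether a call lost there shows a weaker effect was not settled. Summing pseudogenes with their parent genes left 7 calls in GFP muscle and 15 in Crtc2 muscle, beside 1149 and 1760 of 15810 genes. In 188 pairs of a named member and a comparison without a call, 27 of 3015 alternative values passed, all in the direction of the original estimate, and 199 changed sign without passing. Members outside the named ones were followed by counts alone. Hspa1a, with 425 counts in all, had a log2 SE of 2.14 in each diet comparison.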
